A study of Mus musculus with 10 samples.

Results

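The SLC25 family of carriers was described in brown adipose tissue of C57BL/6J wild-type mice. Members were the genes whose symbol is Slc25a followed by a number, and 46 of the 32889 genes in the table met this rule. The samples were 4 libraries from control mice on a regular chow diet, 3 from obesity-prone mice and 3 from obesity-resistant mice, the last 2 groups both on a high-fat diet. The labels give no transgene, drug, age or time on diet, and they do not say how prone and resistant mice were told apart. Whether each library stands for its own animal is not stated, so p-values measure the spread between these libraries, which may be technical. Total RNA from the whole tissue was sequenced, so fewer cells of a type and less RNA per cell cannot be told apart.

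SLC25 proteins form a large family of carriers, most of which sit in the inner mitochondrial membrane and exchange small molecules between the cytosol and the matrix. They move nucleotides, phosphate, organic acids, amino acids, acylcarnitines, cofactors and iron. Brown fat burns fatty acids to make heat, which requires acylcarnitine entry, citrate and amino acid exchange and a supply of cofactors to the matrix. Uncoupling protein 1, which gives brown fat its heat, belongs to the same family but carries another symbol and is no member here. Not all members fit the description: Slc25a17 is known as a peroxisomal carrier and Slc25a46 as a protein of the outer membrane.

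Library totals lay between 35583997 and 37327770 counts. Ucp1, the defining gene of brown fat, measured between 1870 and 6535 FPKM (fragments scaled to gene length and library total), lowest in obesity-prone replicate 3. That library stood apart. Its summed mitochondrial reference genes (12 genes such as Cs and Cox4i1) came to 3428 CPM against 6125 to 6918 in the other 9 libraries, where CPM are counts scaled to TMM-normalised library size. It also had the highest sums of erythrocyte (22269 CPM), macrophage (640.2 CPM) and white adipocyte markers (782.5 CPM). In prone against control libraries 2 of 13 macrophage markers rose, Lyz2 (log2 fold change 1.29, SE 0.29, edgeR adjusted p = 0.0331) and Tyrobp (1.45, SE 0.35, adjusted p = 0.0399). Of 5 white adipocyte markers tested Lep rose (3.72, SE 0.97, adjusted p = 0.049), at 61.2, 23.8 and 394.9 CPM in prone replicates 1 to 3. The 5 did not move together: 2 lay above 0 and 3 below, with a median of -0.42 and Retn at -1.37. Higher calls made up 3.71% of all genes tested. The part of these cells' RNA in the members' values was not tested. Summed skeletal muscle markers (15 genes) ran from 27.7 to 1034 CPM within the control group, from 28.4 to 100.3 in the obesity-prone group and from 43.1 to 859.4 in the obesity-resistant group. No marker of these lists with a measured gene was at 0 in every library. Obesity-prone replicate 3 was the lowest of the 10 libraries for 23 of 43 members tested (53.5%), against 22.6% of all genes tested.

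The family spanned a wide range of levels. By mean FPKM over the 10 libraries, 8 members lay at 100 or more, 14 between 10 and 100, 16 between 1 and 10, and 8 below 1. Slc25a21, Slc25a31 and Slc25a41 had too few counts to be tested, which left 43 members. The summed FPKM of the family averaged 2017 ± 64.7 (SD, n = 4) over the control group, 1724 ± 340.5 (n = 3) over the prone group and 1997 ± 135.8 (n = 3) over the resistant group. Obesity-prone replicate 3 gave 1331 and the other prone libraries 1934 and 1907. Control libraries gave 1947.6 to 2095.7 and resistant libraries 1853.5 to 2123.4. All prone libraries thus lay below control, replicate 3 by far the most, while prone replicates 1 and 2 lay within the resistant range.

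**Figure D1:**
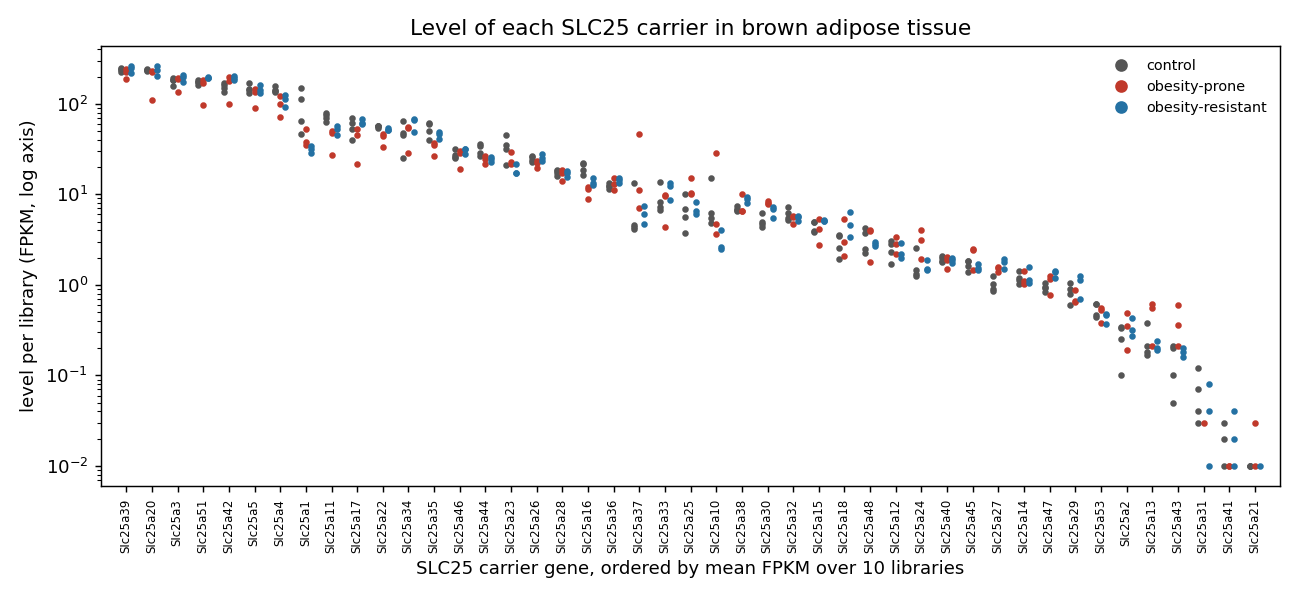
FPKM of the members reported (log axis), ordered by mean level, with 1 point per library; values of 0 cannot be drawn on this axis. Slc25a39 and Slc25a20, at the left end, lie above 100 FPKM in every library, and the 3 members at the right end were not tested.

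The highest member was Slc25a39, a carrier needed for glutathione in mitochondria. It measured 249.8, 225.1, 238.0 and 240.4 FPKM in control, 239.6, 225.1 and 189.2 in obesity-prone and 221.5, 261.9 and 245.7 in obesity-resistant libraries (here and below, in order of replicate number). Slc25a20, the carnitine-acylcarnitine carrier that brings fatty acyl groups into the matrix, measured 230.6, 237.3, 244.2 and 234.2 FPKM in control, 230.4, 226.8 and 110.0 in prone and 204.5, 259.3 and 239.1 in resistant libraries. Both overlapped between all 3 groups, and the low prone values came from replicate 3. Slc25a3, the phosphate carrier that feeds ATP synthesis, measured 155.4, 181.2, 180.9 and 194.2 FPKM in control, 186.1, 193.6 and 133.6 in prone and 175.8, 208.8 and 200.1 in resistant libraries.

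High levels were also found for 2 cofactor carriers. Slc25a51, which imports NAD+, measured 161.8, 174.5, 185.0 and 173.2 FPKM in control, 167.8, 184.2 and 96.6 in prone and 193.4, 197.8 and 193.3 in resistant libraries. Slc25a42, which imports coenzyme A, measured 150.5, 159.8, 133.7 and 168.2 FPKM in control, 198.0, 176.4 and 98.7 in prone and 183.6, 204.5 and 191.5 in resistant libraries. For both the FPKM of every resistant library lay above every control library, while prone replicate 3 was the lowest of the 10. In CPM this held for Slc25a42 but not for Slc25a51, where control replicate 3 (840.1) lay above the resistant libraries (806.7 to 825.1). None of the 5 members given in FPKM passed edgeR's quasi-likelihood test or DESeq2 in any of the 3 comparisons between groups, and 0 of the 5 had an unadjusted edgeR p below 0.05. The order of these 5 was not the same in every library, and neighbours in it overlapped.

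Against control, 5 of the 43 members fell in obesity-prone libraries and 1 rose. The members that fell were Slc25a16, Slc25a11, Slc25a35, Slc25a22 and Slc25a4, and Slc25a30 rose. Mean levels of Slc25a16 were 61.6 ± 9.97 CPM (SD, n = 4) in control and 31.7 ± 6.36 CPM (n = 3) in prone libraries. A change means an adjusted p below 0.05 in edgeR's quasi-likelihood test, with Benjamini-Hochberg adjustment over the 19676 genes tested. The count of 6 members (14.0%) compares with 7.00% of all genes tested. Lower calls made up 11.6% of members against 3.29% of all genes, and higher calls 2.33% against 3.71%. The median log2 fold change of the members was -0.13, and that of all genes 0.005; 29 members lay below 0 and 14 above. The members' median was -0.04 without prone replicate 3.

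Slc25a16, a carrier linked to coenzyme A in the matrix, measured 68.1, 58.9, 70.7 and 48.7 CPM in control, 33.3, 37.1 and 24.7 in prone and 38.7, 43.4 and 40.5 in resistant libraries. Every library on the high-fat diet lay below every control library, as for 4.12% of all genes tested. The log2 fold change against control was -0.96 (SE 0.16, edgeR adjusted p = 0.0159) in prone and -0.59 (SE 0.16, adjusted p = 0.109) in resistant libraries. Slc25a11, the oxoglutarate-malate carrier of the malate-aspartate shuttle, measured 130.2, 123.8, 141.4 and 103.6 CPM in control, 81.7, 80.9 and 45.0 in prone and 78.6, 91.8 and 90.1 in resistant libraries. It too lay below control in all 6 libraries on the high-fat diet, by -0.85 (SE 0.20, adjusted p = 0.0341) in prone and -0.52 (SE 0.19, adjusted p = 0.204) in resistant libraries.

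Slc25a35, a carrier with no agreed substrate, measured 113.6, 95.5, 114.3 and 71.2 CPM in control, 61.4, 67.6 and 46.6 in prone and 74.7, 79.8 and 86.8 in resistant libraries. The prone libraries lay below both other groups, while resistant libraries overlapped control through control replicate 4. Its log2 fold change was -0.75 (SE 0.18, edgeR adjusted p = 0.0358) in prone and -0.29 (SE 0.18, adjusted p = 0.407) in resistant libraries. Slc25a22, a glutamate carrier, measured 157.3, 151.2, 159.8 and 149.7 CPM in control, 118.9, 119.0 and 86.1 in prone and 149.9, 135.5 and 139.6 in resistant libraries. All prone libraries lay below all others. It shifted by -0.52 on the log2 scale (SE 0.12, adjusted p = 0.0316) in prone and -0.13 (SE 0.12, adjusted p = 0.609) in resistant libraries.

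Slc25a4, the ADP/ATP carrier best known from muscle and heart, measured 153.6, 160.4, 177.7 and 142.5 CPM in control, 124.0, 106.8 and 72.5 in prone and 100.3, 128.3 and 121.4 in resistant libraries. All 6 libraries on the high-fat diet lay below control. Its log2 fold change was -0.65 (SE 0.17, edgeR adjusted p = 0.0491) in prone and -0.44 (SE 0.17, adjusted p = 0.218) in resistant libraries. Slc25a30, a carrier related in sequence to the uncoupling proteins, measured 7.52, 7.88, 7.61 and 9.72 CPM in control, 12.4, 11.7 and 12.1 in prone and 8.68, 10.2 and 11.5 in resistant libraries. All prone libraries lay above all others. On the log2 scale the gap to control was 0.56 (SE 0.13, adjusted p = 0.0324) in prone and 0.31 (SE 0.13, adjusted p = 0.242) in resistant libraries.

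**Figure D2:**
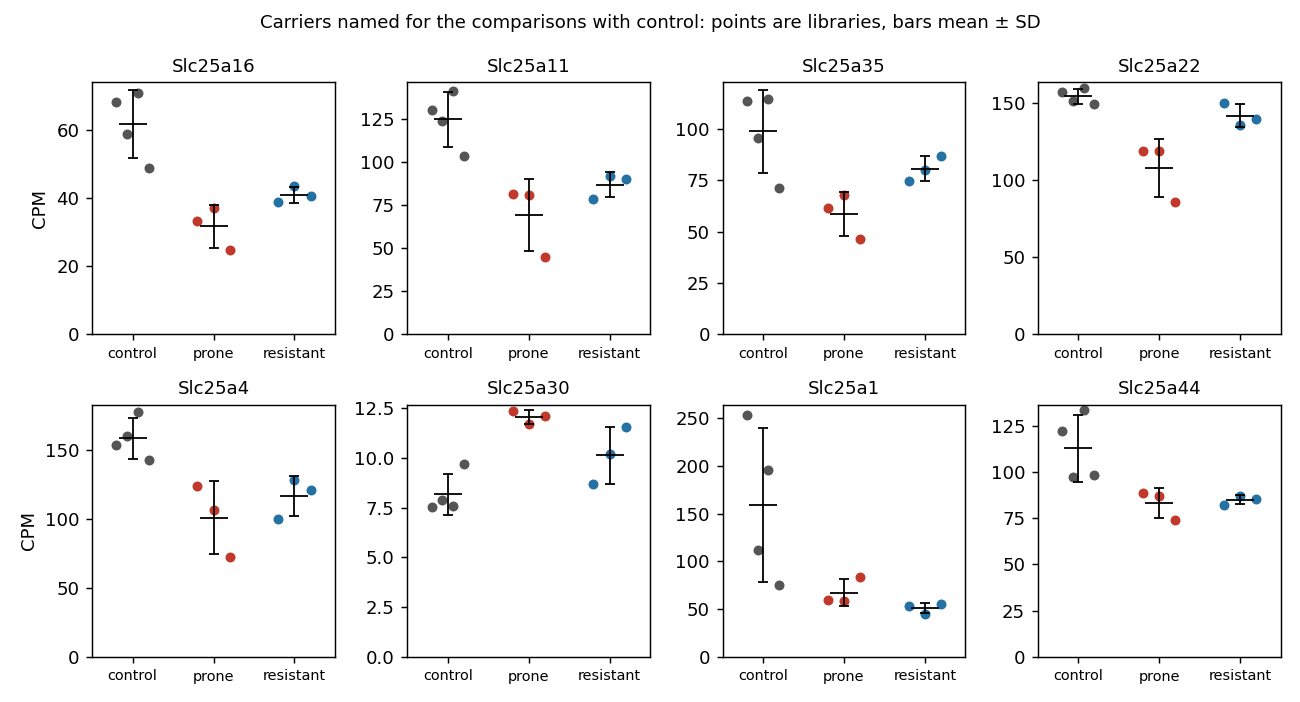
CPM of 8 members in each library (points) with mean and SD (bars) per group, on axes that start at 0. For Slc25a16, Slc25a11, Slc25a4 and Slc25a44 every library on the high-fat diet lies below every control library, as for 4.12% of all genes tested. Slc25a30 lies higher in all 3 prone libraries.

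In GRCm38.p6 the member genes that changed lie at chr10:62920632-62946494 (Slc25a16), chr11:70644019-70647531 (Slc25a11), chr11:68968096-68972516 (Slc25a35), chr7:141429749-141437874 (Slc25a22), chr8:46207168-46211062 (Slc25a4) and chr14:75757534-75787037 (Slc25a30). The strand of counting is not given in the sources used here, so reads of genes that overlap cannot be told apart. Slc25a11 overlaps Rnf167, which fell in prone libraries by 0.37 on the log2 scale (edgeR adjusted p = 0.035), and all its counts were fractional. Slc25a35, with 0% of its counts fractional, overlaps Rangrf, which had a log2 fold change of 0.41 (edgeR adjusted p = 0.249). Slc25a26, also with 0% of its counts fractional, overlaps Lrig1, which fell by 0.77 (edgeR adjusted p = 0.0258). Slc25a16 overlaps Gm25862 and Gm16128, for which no values were found, and 0% of its counts were fractional. Other members overlap genes as well, among them Slc25a44, Slc25a25 and Slc25a37, with 0%, 80% and 100% of counts fractional.

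Promoter sequence is shown for the member whose fall held most often under other settings (Slc25a16), for the member that rose (Slc25a30) and for Slc25a1, the citrate carrier, which had the lowest fold change of the family. Each is the 250 bases before a RefSeq transcript start, 5′ to 3′ on the gene's strand in GRCm38.p6, with matches to the E-box CACGTG, the CCAAT box CCAAT and the GC box GGGCGG on either strand in capitals. The windows are chr10:62920383-62920632 (plus strand) for Slc25a16, chr14:75787038-75787287 (minus strand) for Slc25a30 and chr16:17928220-17928469 (minus strand) for Slc25a1. The Slc25a16 window ends on the first base listed for the gene, because the window's transcript start lies 1 base further on.
Slc25a16: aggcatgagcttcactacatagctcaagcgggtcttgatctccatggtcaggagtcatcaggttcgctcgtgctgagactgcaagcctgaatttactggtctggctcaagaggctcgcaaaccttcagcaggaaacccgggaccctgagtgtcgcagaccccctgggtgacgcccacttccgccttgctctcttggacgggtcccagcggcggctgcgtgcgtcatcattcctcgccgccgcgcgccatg
Slc25a30: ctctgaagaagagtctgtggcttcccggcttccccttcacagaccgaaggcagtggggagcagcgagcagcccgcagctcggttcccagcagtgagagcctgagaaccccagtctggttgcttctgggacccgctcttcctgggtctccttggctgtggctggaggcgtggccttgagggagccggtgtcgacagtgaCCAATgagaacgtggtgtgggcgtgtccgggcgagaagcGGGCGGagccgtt
Slc25a1: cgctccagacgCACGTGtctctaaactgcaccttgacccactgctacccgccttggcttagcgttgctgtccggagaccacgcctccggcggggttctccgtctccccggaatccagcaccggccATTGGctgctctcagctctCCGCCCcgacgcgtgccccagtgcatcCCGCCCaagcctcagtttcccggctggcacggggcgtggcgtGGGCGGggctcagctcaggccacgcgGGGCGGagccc
The Slc25a1 window held an E-box beginning 239 bases before the start, a CCAAT box at 125 and GC boxes at 106, 79, 37 and 11 bases before the start. The Slc25a30 window held a CCAAT box at 52 and a GC box at 13 bases before the start, and none of the 3 motifs was found in the Slc25a16 window. A window was found for 35 of the 46 members, with 45 windows in all. Of 7 motifs searched on both strands, the E-box was in 17.8% of members' windows against 6.02% of all 32851 windows, the CCAAT box in 46.7% against 33.8% and the GC box in 71.1% against 32.7%. The cAMP response element TGACGTCA was in 4.44% against 1.55%, the NRF1 motif GCGCATGC in 2.22% against 2.26%, the ETS motif CCGGAAGT in 2.22% against 2.88% and the ERR motif TCAAGGTCA in 0% against 0.387%. The E-box reads the same on both strands, no 2 of the matches shown overlap, and a match describes letters only.

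The count for prone against control depended on the libraries and the tool. DESeq2 called 10 members (15.9% of all genes tested), adding Slc25a1, Slc25a24, Slc25a25 and Slc25a44, and 9 members did not overlap between the groups (20.3% of all genes). Leaving out control replicates 1 to 4 in turn gave 1, 1, 0 and 12 members, where all genes called numbered 256, 254, 76 and 3040, against 1377 with all libraries. It was 2, 8 and 3 without prone replicates 1 to 3 (508, 2176 and 535 of all genes), the last being Slc25a11, Slc25a16 and Slc25a22. Without resistant replicates 1 to 3 it was 2, 1 and 2 (758, 587 and 709 of all genes). It was 0 in a fit of only these 2 groups (66 of all genes) and 1, Slc25a16, with the skeletal muscle score as a covariate (631 of all genes). Slc25a16 was called in 19 of 21 alternatives, Slc25a30 in 13, Slc25a11 and Slc25a22 in 12, Slc25a35 in 11 and Slc25a4 in 5.

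Against control, no member passed the test in obesity-resistant libraries, in edgeR's quasi-likelihood fit. The background was 0.142% of all genes tested. At an unadjusted p below 0.05 there were 9 members (20.9%), against 18.0% of all genes, and DESeq2 called 3 members, Slc25a1, Slc25a16 and Slc25a23, against 5.78% of all genes. Groups did not overlap for 9 members, against 20.2% of all genes. The members' median log2 fold change was -0.05, with 24 members below 0 and 19 above. The labels state no pairing. With the replicate number as a block, edgeR called 2 members, Slc25a1 and Slc25a23, both lower, among 382 of all genes. In a blocked fit of only these 2 groups it called 7 members among 1645 of all genes, with Slc25a1, Slc25a4, Slc25a11, Slc25a16, Slc25a23 and Slc25a35 lower and Slc25a34 higher; control replicate 4 has no partner there and adds nothing. Without the block the count was 3 without control replicate 4 (864 of all genes), 1 without prone replicate 3 (292 of all genes), and 0 without each other library (3 to 180 of all genes).

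Prone and resistant libraries, which share the diet, did not differ in any member by edgeR's quasi-likelihood test, nor did any of all genes tested (0%). At an unadjusted p below 0.05 there were 10 members, against 15.4% of all genes, and DESeq2 called 0 members against 2.87% of all genes. Groups did not overlap for 11 members, against 19.7% of all genes. The members' median log2 fold change was -0.20 and became -0.04 without prone replicate 3. A p above the threshold with 3 libraries a group does not show that the groups were alike.

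Both comparisons with control share the control libraries. After these values were seen, the mean of both high-fat groups was set against control, and 6 members changed, against 6.15% of all genes tested. Slc25a1, Slc25a4, Slc25a11, Slc25a16 and Slc25a44 were lower (background 3.33%) and Slc25a30 higher (background 2.82%). DESeq2 called 10 members, against 13.0% of all genes. High-fat and control libraries did not overlap for 4 members (9.30%), against 8.10% of all genes. All 4 lay below control, as did 4.12% of all genes. Dropping control replicates 1 to 4 in turn, edgeR called 0, 0, 0 and 8 members (130, 145, 56 and 2592 of all genes, against 1211 with all libraries). It was 4, 3 and 6 without prone replicates 1 to 3 (828, 1040 and 1616 of all genes), and 1, 2 and 1 without resistant replicates 1 to 3 (219, 515 and 332 of all genes). With the muscle score as a covariate 2 members, Slc25a1 and Slc25a16, were called among 785 of all genes.

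**Figure D3:**
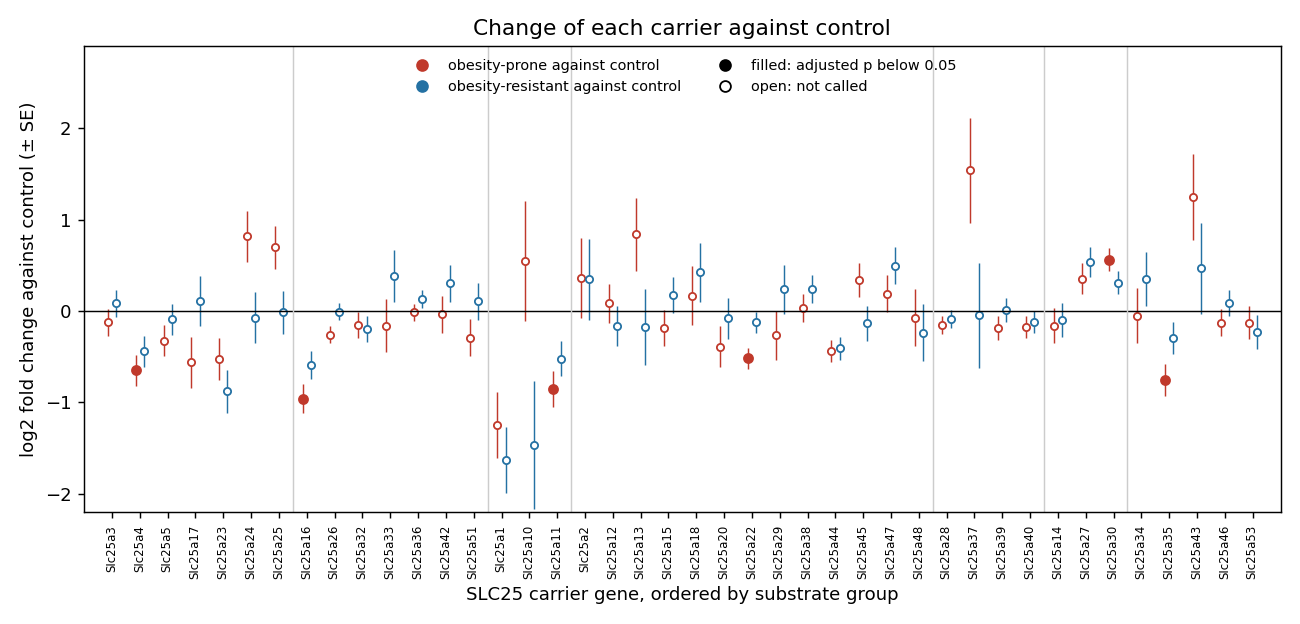
Log2 fold change against control (± SE) of the tested members reported, ordered by substrate group, for obesity-prone (red) and obesity-resistant (blue) libraries; filled points passed the test. The 6 filled points are all in the prone comparison, and both comparisons use the same 4 control libraries.

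Among the di- and tricarboxylate carriers, Slc25a1 moves citrate out of mitochondria, where it feeds fatty acid synthesis in the cytosol. It measured 253.8, 112.0, 196.1 and 75.2 CPM in control, 59.3, 58.5 and 83.6 in prone and 53.1, 45.2 and 55.9 in resistant libraries. Control libraries differed by more than 3-fold among themselves; all 3 resistant libraries lay below control, and prone replicate 3 lay above control replicate 4. Fold changes on the log2 scale were -1.25 (SE 0.36, edgeR adjusted p = 0.0611) in prone, -1.63 (SE 0.36, adjusted p = 0.084) in resistant and -1.44 (SE 0.29, adjusted p = 0.0239) in both high-fat groups together. Acly, which splits the exported citrate, measured 932.0, 381.6, 1147 and 259.3 CPM in control and between 130.6 and 165.8 in all 6 high-fat libraries. Slc25a1 and Acly were thus highest in the same control libraries, replicates 1 and 3.

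Slc25a10, the dicarboxylate carrier, known as abundant in white fat, measured 60.2, 22.8, 26.1 and 18.5 CPM in control, 18.2, 14.1 and 107.3 in prone and 10.2, 9.83 and 14.7 in resistant libraries. Prone replicate 3 and control replicate 1 stood above the rest, and these had the highest and the second highest sum of white adipocyte markers (782.5 and 148.0 CPM). Different genes made up these sums. Lep and Nnat measured 394.9 and 342.4 CPM in prone replicate 3 but 22.2 and 20.8 in control replicate 1, while Retn measured 39.8 and 97.2 CPM, respectively. Prone replicate 1 had nearly the same marker sum as control replicate 1 (145.6 CPM) with Slc25a10 at 18.2 CPM, and the 5 highest libraries for the gene and for the sum shared 3. Its log2 fold change of prone against resistant libraries was 2.01 (SE 0.74, edgeR adjusted p = 0.272), and 0.48 without prone replicate 3. The part of white adipocyte RNA in these values was not tested.

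Among adenine nucleotide and phosphate carriers, Slc25a5, the ADP/ATP carrier of proliferating and many other cells, measured 185.8, 175.1, 226.7 and 174.7 CPM in control, 175.8, 172.8 and 107.2 in prone and 168.7, 192.1 and 176.8 in resistant libraries. All groups overlapped (prone against control -0.33, SE 0.17, edgeR adjusted p = 0.238). The ratio of Slc25a4 to Slc25a5, per length from FPKM, was 0.972, 1.08, 0.921 and 0.959 in control, 0.830, 0.726 and 0.795 in prone and 0.699, 0.785 and 0.808 in resistant libraries. Thus the balance of these 2 isoforms lay lower in every library on the high-fat diet, prone replicate 3 included; it was given no test.

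Slc25a23, Slc25a24 and Slc25a25 exchange ATP-magnesium for phosphate and so set the matrix pool of adenine nucleotides. Slc25a23 measured 156.4, 113.2, 126.6 and 70.7 CPM in control, 95.7, 77.5 and 70.3 in prone and 59.6, 57.5 and 73.0 in resistant libraries, with overlap through control replicate 4. Its log2 fold change was -0.52 (SE 0.23, edgeR adjusted p = 0.166) in prone and -0.88 (SE 0.23, adjusted p = 0.107) in resistant libraries. The other two had prone fold changes above 0. Slc25a25 measured 16.8, 25.7, 23.6 and 36.9 CPM in control, 36.2, 35.4 and 53.7 in prone and 23.9, 27.8 and 24.8 in resistant libraries. Slc25a24 measured 4.25, 5.13, 4.70 and 8.41 CPM in control, 10.2, 6.47 and 13.0 in prone and 6.37, 4.78 and 4.88 in resistant libraries. Both were above every resistant library in every prone library, and control replicate 4 overlapped the prone libraries. Neither passed the test against control in prone libraries, with log2 fold changes of 0.70 (SE 0.23, adjusted p = 0.0906) for Slc25a25 and 0.82 (SE 0.28, adjusted p = 0.091) for Slc25a24. Slc25a25 held 7.39%, 17.1%, 13.2% and 29.6% of the summed FPKM of these 3 and the untested Slc25a41 in control libraries. Its share was 23.9%, 28.8% and 37.5% in prone and 24.2%, 30.5% and 22.0% in resistant libraries.

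**Figure D4:**
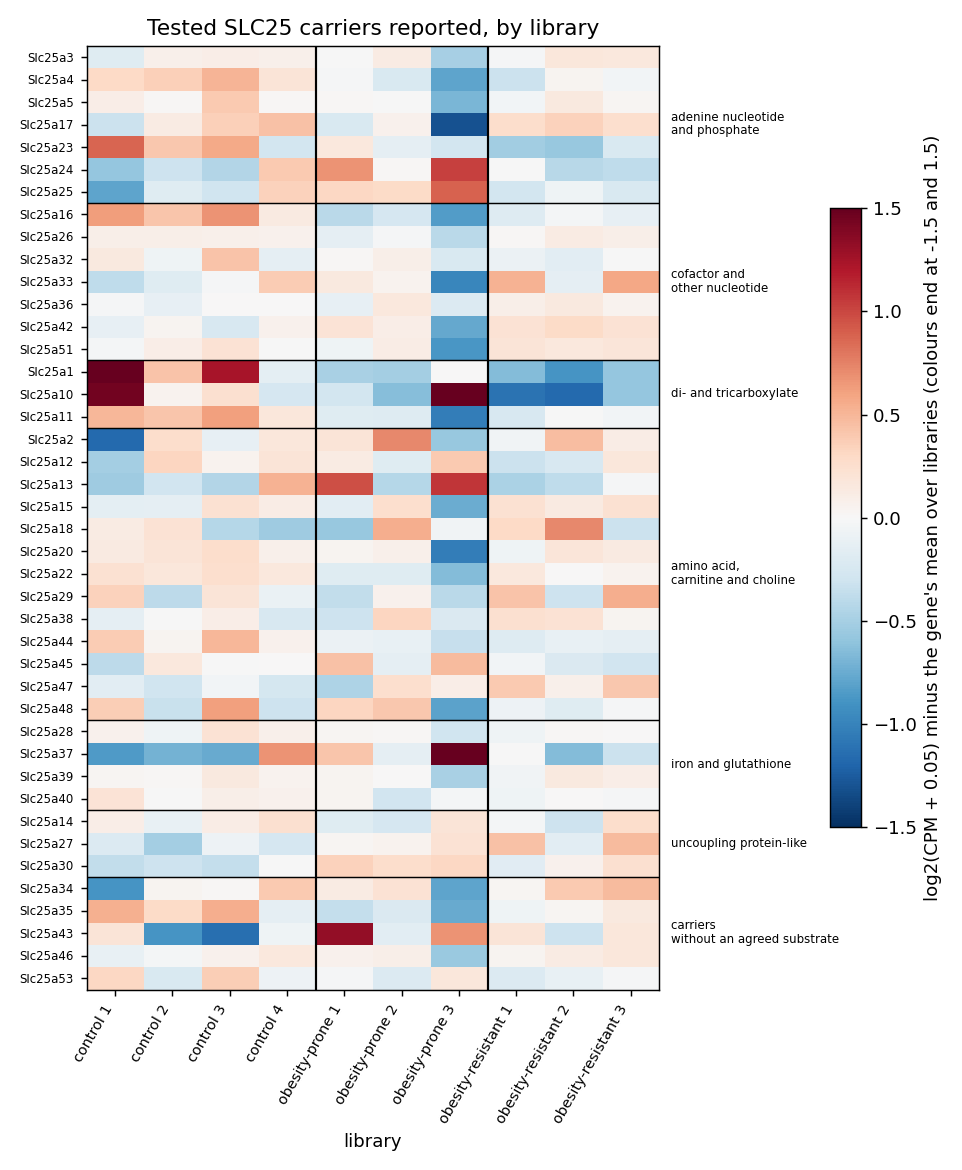
Log2(CPM + 0.05) of the tested members reported, each minus its mean over the 10 libraries, with members grouped by substrate and libraries by group; colours end at -1.5 and 1.5. Prone replicate 3 is the bluest column, with Slc25a10, Slc25a37, Slc25a24, Slc25a25 and Slc25a13 among its red cells.

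Amino acid, carnitine and choline carriers gave 1 call among 13 members tested in prone against control libraries, Slc25a22. Of all genes tested 7.00% were called, and the median log2 fold change of these carriers was 0.03. Slc25a44 is known to carry branched-chain amino acids into brown fat mitochondria. It measured 122.1, 97.0, 133.3 and 98.1 CPM in control, 88.8, 86.7 and 73.7 in prone and 82.1, 87.1 and 85.4 in resistant libraries. Every high-fat library lay below every control library. The log2 fold change was -0.44 (SE 0.13, edgeR adjusted p = 0.0597) in prone, -0.41 (SE 0.13, adjusted p = 0.139) in resistant and -0.42 (SE 0.10, adjusted p = 0.0428) in both together. Slc25a20, given above in FPKM, was not called; its prone log2 fold change was -0.39 (SE 0.23, adjusted p = 0.284), and -0.11 without prone replicate 3.

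Slc25a12 and Slc25a13, the aspartate-glutamate carriers of the malate-aspartate shuttle, were low. Slc25a12 measured 5.51, 9.85, 8.12 and 8.94 CPM in control, 8.54, 6.88 and 10.3 in prone and 6.26, 6.61 and 8.83 in resistant libraries. Slc25a13 measured 0.503, 0.608, 0.542 and 1.10 CPM in control, 1.52, 0.544 and 1.63 in prone and 0.528, 0.564 and 0.740 in resistant libraries. All groups overlapped for both. Per length, Slc25a12 exceeded Slc25a13 by 5.13-fold to 14.5-fold in each library.

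Slc25a45 measured 2.82, 4.17, 3.71 and 3.75 CPM in control, 5.08, 3.40 and 5.21 in prone and 3.61, 3.20 and 3.04 in resistant libraries. Slc25a47 measured 1.79, 1.62, 1.94 and 1.66 CPM in control, 1.44, 2.39 and 2.16 in prone and 2.64, 2.12 and 2.66 in resistant libraries. Resistant libraries lay above control for Slc25a47 (log2 fold change 0.50, SE 0.20, edgeR adjusted p = 0.23), and prone libraries overlapped both other groups for both genes.

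Among cofactor and other nucleotide carriers, Slc25a16 was the 1 call of 8 tested in prone against control libraries. Of all genes tested, 7.00% were called there. The summed mitochondrial reference genes were low in prone replicate 3 as well (3428 CPM). Slc25a26, which imports the methyl donor S-adenosylmethionine, measured 32.9, 32.9, 32.6 and 32.3 CPM in control, 28.1, 30.5 and 23.4 in prone and 31.3, 33.5 and 32.7 in resistant libraries. All prone libraries lay below all others, by -0.26 against control (SE 0.09, edgeR adjusted p = 0.102). For Slc25a51 and Slc25a42 the prone log2 fold changes were -0.29 and -0.04, neither called.

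Of 4 iron and glutathione carriers tested, none passed the test in edgeR's quasi-likelihood fit or in DESeq2. Slc25a37 alone had an unadjusted edgeR p below 0.05, in both comparisons of the prone group. Such a p was held by 28.1% of all genes tested against control and 15.4% against resistant libraries. Slc25a37, or mitoferrin 1, supplies iron to mitochondria and is known for haem synthesis in developing red cells. It measured 21.0, 23.1, 22.2 and 60.1 CPM in control, 50.1, 34.3 and 190.7 in prone and 37.5, 24.0 and 30.2 in resistant libraries. Its 5 highest libraries were the same 5 as for the summed erythrocyte markers, 8 genes such as Hba-a1. Those sums were 824.2, 1225, 1189 and 6174 CPM in control, 4767, 2424 and 22269 in prone and 2553, 709.7 and 1742 in resistant libraries. The prone against resistant log2 fold change of 1.59 (SE 0.63, adjusted p = 0.287) became 0.47 without prone replicate 3. The part of red cell RNA in these values was not tested. For Slc25a39 the log2 fold changes were -0.19 in prone and 0.01 in resistant libraries, neither called.

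**Figure D5:**
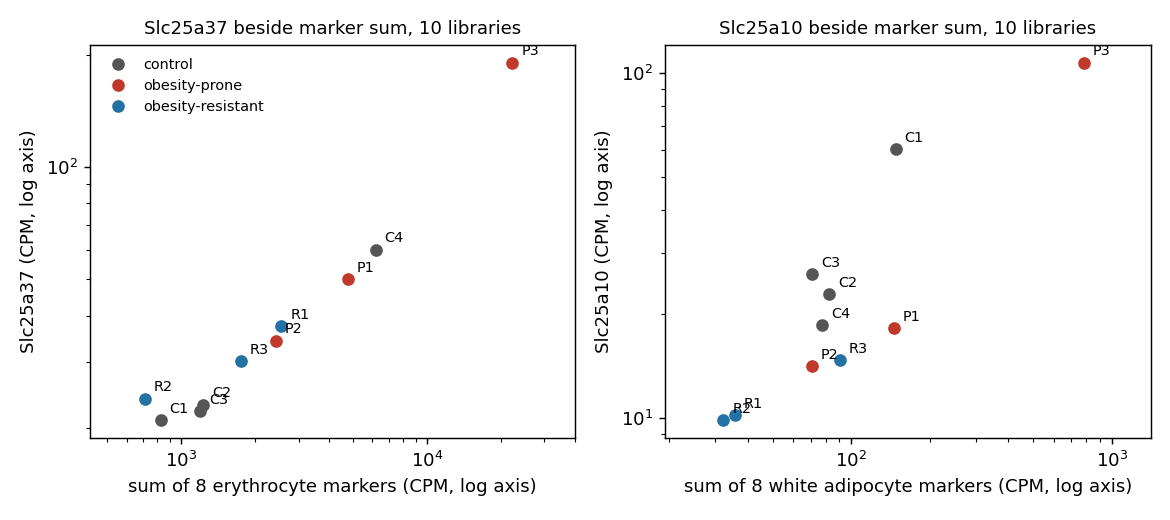
CPM of Slc25a37 against the summed erythrocyte markers (left) and of Slc25a10 against the summed white adipocyte markers (right), log axes, 1 point per library (C control, P obesity-prone, R obesity-resistant, with replicate number). Prone replicate 3 is highest on all 4 axes.

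Of 3 carriers related to the uncoupling proteins, Slc25a30 was called in prone against control libraries, where 7.00% of all genes tested were called. Slc25a27, also named uncoupling protein 4, measured 6.99, 5.62, 7.61 and 6.77 CPM in control, 8.20, 8.35 and 9.34 in prone and 10.9, 7.20 and 11.2 in resistant libraries. Prone libraries lay above control, and resistant replicate 2 fell among the controls. The log2 fold change was 0.36 (SE 0.17, edgeR adjusted p = 0.191) in prone and 0.54 (SE 0.17, adjusted p = 0.14) in resistant libraries. Slc25a34, a relative of Slc25a35 without an agreed substrate, measured 68.9, 131.9, 129.1 and 168.1 CPM in control, 138.6, 148.1 and 73.7 in prone and 130.4, 168.1 and 177.3 in resistant libraries. All groups overlapped, and its prone log2 fold change of -0.05 (SE 0.30, adjusted p = 0.927) became 0.20 without prone replicate 3.

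Beside the 46 members, 5 family members under other symbols were read. In prone against control libraries 2 of them fell, where 3.29% of all genes tested were called lower. Ucp3, an uncoupling protein of muscle and brown fat, measured 165.6, 209.0, 191.5 and 139.9 CPM in control, 80.9, 62.9 and 46.1 in prone and 86.8, 119.3 and 121.2 in resistant libraries. All high-fat libraries lay below control. It fell in prone libraries by 1.48 on the log2 scale (SE 0.21, edgeR adjusted p = 0.0114). Mtch1, a protein of the outer mitochondrial membrane, fell by 0.61 (SE 0.13, adjusted p = 0.0266), and Ucp1, Ucp2 and Mtch2 (-0.43, SE 0.21, adjusted p = 0.203) were not called.

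Carriers enter mitochondria through the outer membrane pore and the small TIM chaperones, and the TIM22 complex inserts them into the inner membrane. Of 16 import genes tested, all 16 had a prone log2 fold change below 0, with a median of -0.29, and 2 passed the test. Of all 19676 genes tested, 9729 had a prone log2 fold change below 0 and 3.29% were called lower. Timm22, the core of that inner membrane complex, measured 15.9, 15.2, 18.3 and 16.4 CPM in control, 10.9, 11.6 and 7.87 in prone and 11.2, 13.3 and 11.4 in resistant libraries, and fell by 0.70 in prone libraries (SE 0.14, edgeR adjusted p = 0.0245). Tomm6, a small subunit of the outer membrane pore, fell by 0.51 (SE 0.09, adjusted p = 0.0197), and Agk, a subunit of the TIM22 complex, gave -0.37 (SE 0.11, adjusted p = 0.0704). The 12 mitochondrial reference genes, fixed as a measure of mitochondrial content, had a median of -0.27, and Tomm20 is in both lists. As the average of log2 CPM minus each gene's mean over the 10 libraries, the 16 import genes gave -0.007, 0.007 and -0.610 in prone replicates 1 to 3. The same measure gave 0.070 to 0.243 in control and -0.025 to 0.065 in resistant libraries, so prone replicate 3 lay furthest below. The 12 reference genes gave 0.065, 0.119 and -0.805 in prone replicates 1 to 3 and -0.012 to 0.203 in control libraries. For these genes only prone replicate 3 lay below the control range.

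Of 22 other mitochondrial transport proteins, 3 fell in prone libraries and none rose, against 3.29% of all genes tested called lower and 3.71% called higher. They were the sideroflexins Sfxn1, a serine carrier (-0.97, SE 0.21, edgeR adjusted p = 0.0307), Sfxn2 (-0.84, SE 0.16, adjusted p = 0.0226) and Sfxn4 (-0.57, SE 0.15, adjusted p = 0.0474). Sfxn3 (0.54, adjusted p = 0.228) and Sfxn5 (-0.31, adjusted p = 0.268) were not called. By the average used for the import genes, the 22 genes gave 0.014, -0.056 and -0.352 in prone replicates 1 to 3 and 0.042 to 0.181 in control libraries. Of 24 enzymes that make or use the carried substrates, 4 fell and none rose, against the same shares of all genes. Their average was -0.082, -0.052 and -0.551 in prone replicates 1 to 3 and 0.059 to 0.268 in control libraries. The 4 were Acly (-2.19, SE 0.46, edgeR adjusted p = 0.0271), Ppm1k (-1.38, SE 0.25, adjusted p = 0.0202), Bcat2 (-1.33, SE 0.17, adjusted p = 0.00924) and Mdh1 (-0.75, SE 0.17, adjusted p = 0.0341). Bcat2 begins branched-chain amino acid breakdown, Ppm1k activates its next step, and Mdh1 is the cytosolic malate dehydrogenase of the malate-aspartate shuttle. With both high-fat groups against control, 7 of the 24 fell, where 3.33% of all genes were called lower. These were the same 4 and Got2 (-0.68, SE 0.17, edgeR adjusted p = 0.042), Bckdk (-0.51, SE 0.12, adjusted p = 0.0398) and Me1 (-0.76, SE 0.20, adjusted p = 0.0471).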

How the data were processed

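Poly(A) selection, strand setting and annotation release are not given in the sources used here. Per the labels, Bowtie2 2.2.5 placed clean reads of total RNA on the sequencing company's own gene set and RSEM 1.2.12 turned them into expected counts per gene. HISAT2 2.0.4 and GRCm38.p6 appear in the submitters' processing notes. The deposited table gives expected counts and a second value per library. Its scale follows FPKM, since the ratio of count to value, as a median over 2062 genes, tracked the library totals within 0.14%. Single genes can depart further. It was read as the authors' FPKM. The 6 columns of group means were not used.

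Expected counts were rounded and fitted in edgeR 4.0.16 (R 4.3.3) with TMM factors, filterByExpr (minimum count 10) and a robust quasi-likelihood model with 1 coefficient per group over 10 libraries (7 residual degrees of freedom). P-values were adjusted over 19676 genes by the Benjamini-Hochberg method. Alternatives used DESeq2 1.42.0, limma 3.58.1 on log2(FPKM + 0.5), other scalings and filters, a replicate block, a muscle covariate and 1 library left out at a time. The code was tested on simulated data. Totals lay between 35583997 and 37327770 counts, at which 3 members had 0 to 9 counts per library and were not tested.

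Replicate numbers were checked for pairing. Deviations from group means correlated between same-numbered control and resistant libraries (0.149, 0.121 and 0.187), between control and prone libraries at -0.086, -0.104 and -0.146, and between prone and resistant libraries at -0.108, -0.065 and 0.206. By a rule of more than 0.1 in every pair, only control and resistant libraries counted as paired. The main fit used no pairing, and the replicate number entered only as a block in alternatives. The labels state no pairing, and 2 pairs of control and resistant libraries with different numbers correlated more (0.254 and 0.242).

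Members and lists were chosen with earlier results of these data known. Library values are given for members called in any of the 3 comparisons, the 8 with the lowest p in each, the 6 highest by mean FPKM, and Slc25a1, Slc25a4, Slc25a5, Slc25a12, Slc25a13, Slc25a20, Slc25a25, Slc25a34, Slc25a44 and Slc25a51. Of the other lists, genes called are named, with Mtch2 and Agk as genes of low p that were not called; other marker and reference genes are given by their sums. A member that this rule names is not reported here. All 46 members matched RefSeq GRCm38.p6, which gave positions and promoter sequences.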

Additional observations from a re-analysis of the deposited data

Results flagged for a closer look

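In the 4 control libraries, 1 library stood far from the other 3 for 3 of the 27 members checked. The gap was wider than Dixon's 95% critical value, which chance passes in about 1 of 20 groups. Slc25a3 measured 228.6 CPM in control replicate 1 against 272.5 to 278.0 in the others. Slc25a30 measured 9.72 CPM in control replicate 4 against 7.52 to 7.88, and Slc25a37 measured 60.1 CPM in control replicate 4 against 21.0 to 23.1. Control replicate 4 also had the highest erythrocyte marker sum of the control group, 6174 CPM.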

How the results depend on the processing

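The minimum-count filter kept Slc25a21, Slc25a31 and Slc25a41 out of the tests. For prone against control, 6 members were called; DESeq2 called 10, the muscle covariate left 1, a fit of only these groups 0, and leaving out 1 library gave 0 to 12 (median -0.231 to -0.039, from -0.129). The other settings gave 5 to 9, and counts over all genes ran from 66 to 3138 against 1377. For resistant against control (0 called), DESeq2 called 3, the replicate block 2 and the replicate block in only these groups 7 (median 0.085, from -0.049), and leaving out 1 library gave 0 to 3 (median -0.092 to 0.079); all genes called ran from 3 to 1645 against 28. The replicate block moved no other count of members by more than 1.5 times. For prone against resistant libraries, 0 members were called in every alternative run, and leaving out 1 library gave a median of -0.267 to -0.039. For both high-fat groups against control (6 called), DESeq2 called 10, the muscle covariate left 2, and leaving out 1 library gave 0 to 8; all genes called ran from 56 to 2592 against 1211.

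Among the members whose fold changes were recomputed in each comparison, which leaves out others near 0, signs changed for 5, none of them called. Slc25a34 in prone libraries (-0.052) became 0.156 with the replicate block, 0.028, 0.029 and 0.028 in limma at pseudocounts of 0.5, 0.1 and 1, and -0.253 to 0.203 with 1 library left out. Slc25a25 in resistant libraries (-0.015) became 0.230 with either replicate block, 0.145, 0.159 and 0.131 in limma, and -0.174 to 0.210 with 1 library left out. Slc25a13 in resistant libraries (-0.173) became 0.125 and 0.142 with the replicate blocks and -0.322 to 0.148 with 1 library left out. With 1 library left out, Slc25a12 in prone libraries (0.082) gave -0.072 to 0.217 and Slc25a5 in resistant libraries (-0.089) gave -0.143 to 0.004. The cause was not tested.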
